A study of Mus musculus with 6 samples.

Results

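Interferon-stimulated genes were described in 2 tissues of pregnant mice lacking the cytokine gene *Lif* (leukemia inhibitory factor) in the uterine epithelium. They were chosen by gene symbol: every row whose symbol begins with *Ifit*, *Ifitm*, *Oas*, *Slfn*, *Gbp*, *Irgm*, *Iigp*, *Irf* or *Isg* in the numbered forms of these families, together with *Mx1*, *Mx2*, *Gm14446*, *Usp18*, *Rsad2*, *Bst2*, *Ifi35*, *Ifi44*, *Ddx58* and *Ifih1*. This gave 70 of the 23420 genes in each table, and no measured value entered the choice. Of these, 4 (*Irf2bp1*, *Irf2bp2*, *Irf2bpl* and *Isg20l2*) match by name only, as they encode partners or relatives of the named proteins and are not known as interferon-induced.

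Samples were the uterine luminal layer, cut out with a laser, and blastocysts washed out of the same organ, both from the evening of day 4 (8 pm), when attachment is near. The mothers were *Lif*-floxed/floxed without Cre and given PBS (control), *Lif*-floxed/floxed *Ltf*-Cre/+ given PBS (*Lif* eKO), or *Lif*-floxed/floxed *Ltf*-Cre/+ given recombinant Lif (rLif). The rLif dose was 20 µg per head at 10 am and 6 pm, with tissue taken 2 h after the later one. All mothers thus carried the floxed allele, and *Ltf*-Cre acts in the uterine epithelium, where the *Ltf* promoter is active. The blastocysts of all 3 groups were *Lif*-floxed/+, so they differed in the mother and her treatment and not in the labelled genotype. Ages were not given in the labels. Each group was 1 library, made from RNA of several independent uterine samples or from pooled blastocysts. There were no replicates, so every comparison is between 2 libraries, the spread between animals is unknown and no p-value is given. In pooled tissue, fewer cells of a type and less RNA per cell cannot be told apart.

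Total counts ranged from 18996158 to 28460465 per library. *Lif* itself was counted 28 times in the luminal library labelled eKO and 0 times in those labelled control and eKO with rLif, which is opposite to the labels. The counts cover the whole gene, including exons outside the floxed part. Luminal libraries are therefore named by their labels throughout. All 6 luminal epithelium markers were abundant in the luminal libraries, the scarcest being *Wnt7a* at 2916, 2968 and 4338 counts (control, eKO, eKO with rLif, the order used throughout). Of the 3 inner cell mass markers, *Pou5f1* and *Nanog* were at 0 in them, while *Sox2* had 8, 19 and 0 counts. The 5 trophectoderm markers lay between 0 and 124 counts there, among them *Tfap2c* at 124, 7 and 107, *Elf5* at 75, 76 and 5 and *Eomes* at 65, 60 and 47. The blastocyst libraries held *Pou5f1* at 5810, 6172 and 8033 counts, while *Wnt7a* was at 0 in all 3.

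Interferons bind receptors on the cell surface and activate the kinases Jak1, Jak2 and Tyk2, which phosphorylate Stat proteins. Together with Irf9, Stat proteins such as Stat2 bind the interferon-stimulated response element (ISRE) in the promoters of target genes. Pairs of Stat proteins also bind the gamma-activated site (GAS), a motif that Stat3, the factor activated by Lif, recognises. The targets include proteins that bind or cut viral RNA (Ifit, Oas, Isg20), hold back viral entry or release (Ifitm, Bst2), attack the membranes around intracellular microbes (Gbp, Irgm) or switch the response off again (Usp18). In the uterus many of these genes are known to be induced around implantation, in ruminants by an interferon made by the embryo itself.

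The letters of the response element were present in many of these promoters, and 6 promoters that hold them are shown. Of these, 5 belong to the genes farthest from the limit for a call among those called in the luminal layer with a match, and *Ifit1* was added after its values were seen. *Ifitm6*, *Ifitm1*, *Isg20* and *Slfn4*, whose differences are described later as well, held no ISRE core in their windows. Of the 70 genes, 54 had an entry in the promoter table taken from RefSeq (GRCm38.p6, 250 bases before to 50 after the start). The ISRE core (GAAA, then NN for any 2 bases, then GAAA, on either strand) was found in 25 of the 54 (46.3%) and in 1079 of 27025 genes in the table (3.99%). The GAS letters TTCNNNGAA were found in 14 of the 54 (25.9%) and in 2582 of the 27025 (9.55%). The 200 bases upstream of the start are given 5′ to 3′ in the direction of the gene, with the ISRE core in capitals, read directly or as its reverse complement.
Gm14446, minus strand, chr19:34601969-34602168: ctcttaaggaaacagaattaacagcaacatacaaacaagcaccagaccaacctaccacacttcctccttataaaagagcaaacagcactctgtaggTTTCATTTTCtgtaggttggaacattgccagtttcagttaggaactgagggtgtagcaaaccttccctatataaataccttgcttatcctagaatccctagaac
Ifit3, plus strand, chr19:34583329-34583528: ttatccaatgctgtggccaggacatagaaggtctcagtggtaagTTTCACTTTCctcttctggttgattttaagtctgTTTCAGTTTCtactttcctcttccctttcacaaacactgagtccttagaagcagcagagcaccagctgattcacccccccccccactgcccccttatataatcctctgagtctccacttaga
Ifit1, plus strand, chr19:34640689-34640888: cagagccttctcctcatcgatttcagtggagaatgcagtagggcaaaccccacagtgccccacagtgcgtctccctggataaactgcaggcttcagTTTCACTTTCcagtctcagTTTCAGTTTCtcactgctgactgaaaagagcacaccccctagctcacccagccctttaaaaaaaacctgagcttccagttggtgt
Gbp2, plus strand, chr3:142620463-142620662: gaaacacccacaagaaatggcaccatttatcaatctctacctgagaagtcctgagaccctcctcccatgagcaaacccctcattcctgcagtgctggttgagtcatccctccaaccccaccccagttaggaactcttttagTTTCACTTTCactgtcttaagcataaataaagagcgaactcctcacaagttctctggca
Gbp3, plus strand, chr3:142559844-142560043: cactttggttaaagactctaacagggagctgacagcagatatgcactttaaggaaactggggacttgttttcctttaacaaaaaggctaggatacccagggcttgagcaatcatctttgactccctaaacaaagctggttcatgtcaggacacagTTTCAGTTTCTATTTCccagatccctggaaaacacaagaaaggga
Oas3, minus strand, chr5:120777660-120777859: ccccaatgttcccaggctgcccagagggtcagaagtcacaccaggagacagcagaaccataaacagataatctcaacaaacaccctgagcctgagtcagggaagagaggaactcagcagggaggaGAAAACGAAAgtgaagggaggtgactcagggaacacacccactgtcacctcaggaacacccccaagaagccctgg

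*Gm14446* (named *Ifit1bl1* in RefSeq) held a core 104 bases upstream of the start shown, and another 23 bases upstream of a second RefSeq start. *Ifit3* held the core at 156 and 122 bases, and *Ifit1* at 104 and 85 bases. *Gbp2* held it at 59 bases, *Oas3* at 75, and *Gbp3* at 45 and 39 bases in overlapping copies. *Ifit1* is shown because it lies in the same gene cluster as *Ifit3* and *Gm14446* and differed from them in the luminal layer. A match is a description of letters and not a bound site.

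Levels per transcript length, as TPM (reads per base of exon, scaled to a common sum) computed from the deposited counts and exon lengths, were far higher in the luminal layer than in blastocysts. In the control libraries 57 of the 70 genes had the higher TPM in the luminal layer and 9 in blastocysts, and 4 were at 0 in both. The summed TPM of the 70 genes was 17300, 9220 and 26250 in the luminal libraries and 589.9, 736.2 and 620.7 in the blastocyst libraries. The tables were counted separately, so this contrast is between single libraries of 2 tissues with no replicate check. The luminal sum was carried by the Ifitm genes, which encode small membrane proteins that hinder the fusion of viruses with cells. *Ifitm1* had 6377 TPM, *Ifitm3* 4404 and *Ifitm2* 3163 in the library labelled control, followed by the RNA exonuclease gene *Isg20* at 914.2 and *Bst2* (tetherin) at 339.7. In control blastocysts *Ifitm2* was the highest at 159.5 TPM, but 34.9% of its 100-base stretches also occur in other annotated transcripts, so its counts are uncertain. Next in blastocysts came *Isg20l2* at 94.33, *Irf2bpl* at 66.43, *Irf2bp1* at 57.82 and *Irf3* at 41.68 TPM, of which only *Irf3*, the factor that starts interferon transcription, belongs to the pathway. *Gbp1* and *Oas1f* were at 0 counts in all 3 luminal libraries, and had 14, 10 and 3 counts and 33, 96 and 63 counts in blastocysts.

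**Figure D1:**
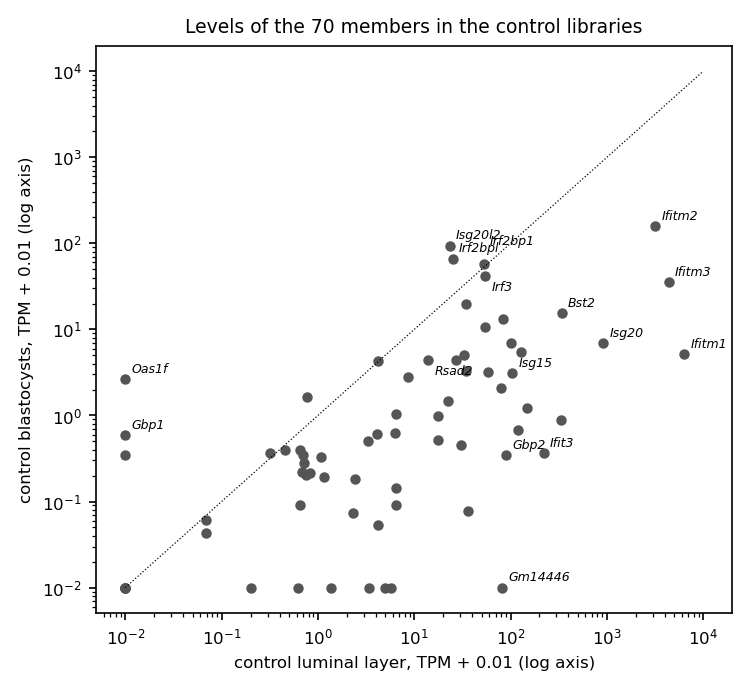
TPM of the 70 genes in the control luminal library (x axis) and the control blastocyst library (y axis), both on log axes after adding 0.01, with 1 point per gene and a dotted line of equal level. Most points lie under the line: 57 genes were higher in the luminal layer, with *Ifitm1* (6377 TPM) farthest to the right and *Gm14446* at 0 in blastocysts.

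Differences between libraries were read on a log2 scale after scaling library sizes by TMM. A gene was called higher or lower when its whole exact 95% interval was past a log2 ratio of 1 in that direction, a 2-fold difference. PCR copies were not marked by molecular identifiers, so the intervals cover counting error only. A sum of 10 counts or more in a tissue was required, which 62 of the 70 reached in the luminal layer and 58 in blastocysts. Of the 8 left out in the luminal layer 6 were at 0 throughout, and of the 12 left out in blastocysts 4 were. A scarce gene could reach the required sum through 1 library alone, which favours a call toward that library. In the luminal layer this held for the called *Oas1e*, *Irf4* and *Slfn3*.

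In the luminal layer, interferon-stimulated genes differed in both directions between the libraries labelled eKO and control. Of the 62 genes, 14 were called lower and 4 higher, against 9.15% and 8.08% of all 15694 genes (17.2% in either direction and 29.0% of the 62). Their median log2 ratio was -0.18, beside 0.01 for all genes. With libraries scaled by TPM the split was 16 lower and 2 higher. Against the library labelled eKO, the library labelled eKO with rLif had 13 genes called higher and 3 lower, beside 7.88% and 7.77% of all genes (15.6% in either direction and 25.8% of the 62). Their median was 0.17, beside -0.01. Against control, the rLif library had 5 called higher and 5 lower, beside 4.12% and 5.04% (9.16% in either direction and 16.1% of the 62). That split became 3 higher and 6 lower with total counts and 3 higher and 7 lower with TPM scaling. The 3 comparisons share libraries, so each gene is described by its counts in all 3.

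**Figure D2:**
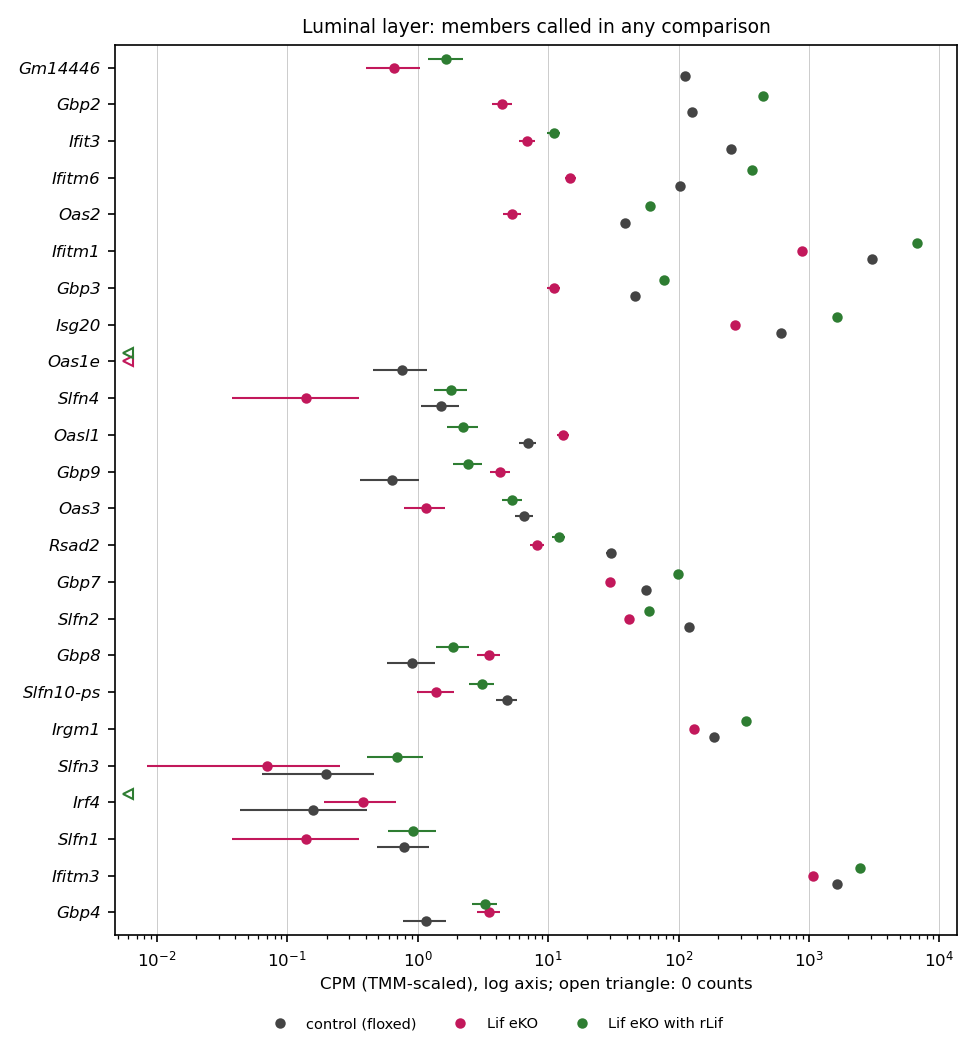
CPM (counts divided by the TMM-scaled library size, log axis) of 24 genes called in a luminal comparison, 1 row per gene and 1 point per library, with exact Poisson 95% intervals as horizontal lines and open triangles for 0 counts. *Gbp2* and *Ifitm6* are lowest in the library labelled eKO and highest in that with rLif, while *Gm14446* and *Ifit3* are far below control in both.

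The guanylate-binding protein *Gbp2* (chr3:142620663-142638008, plus strand), a GTPase known for its strong induction by interferon gamma, had the largest ratio of rLif to eKO among the 62 genes. Its counts were 3179 (control), 128 (eKO) and 11675 (eKO with rLif). The log2 ratio of eKO to control was -4.82, with an interval of -5.09 to -4.57, a 28.2-fold lower level. With rLif it was 1.83 against control (1.78 to 1.89) and 6.65 against eKO (6.40 to 6.92). The eKO library was thus the low one, and the rLif library stood above control as well. None of the 100-base stretches of *Gbp2* occur in another annotated gene.

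The same order of libraries, eKO lowest and rLif highest, was called in all 3 comparisons for 3 abundant genes. *Ifitm6* (chr7:141015812-141016892, minus strand) had 2613, 425 and 9469 counts, with log2 ratios of -2.81 for eKO against control, 1.81 for rLif against control and 4.62 for rLif against eKO. *Ifitm1* (chr7:140967429-140969827, plus strand) had 77253, 25437 and 176335 counts, with ratios of -1.79 (interval -1.81 to -1.77), 1.15 (1.13 to 1.16) and 2.93 (2.92 to 2.95). *Isg20* (chr7:78913765-78920396, plus strand) had 15427, 7854 and 42532 counts and ratios of -1.16, 1.42 and 2.58. These 3 genes are known for blocking viral entry or digesting RNA. The call of *Ifitm1* for rLif against control was lost with total counts and with TPM scaling. *Ifitm3*, at 41155, 30692 and 63878 counts, followed the same order with smaller steps and was called only for rLif against eKO (1.20).

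A further set was called lower in the library labelled eKO but was not called for rLif against control. The oligoadenylate synthetases make a short messenger that activates an RNA-cutting enzyme, and *Oas2* (chr5:120730333-120749848, minus strand) had 975, 153 and 1568 counts. The log2 ratios were -2.86 (interval -3.11 to -2.61) for eKO to control and 3.50 (3.26 to 3.75) for rLif to eKO. *Oas3* (chr5:120753098-120777659, minus strand) had 166, 33 and 138 counts, with ratios of -2.52 and 2.21. *Gbp3* (chr3:142560052-142573212, plus strand) had 1162, 317 and 2020 counts, with ratios of -2.06 and 2.81. None of the 3 was called for rLif against control, where their ratios were 0.64, -0.31 and 0.75. *Oas2* and *Gbp3* were still above control there (intervals 0.52 to 0.76 and 0.65 to 0.86), so they had the order of *Gbp2* as well. *Slfn4* (chr11:83175186-83190216, plus strand), a Schlafen gene known from myeloid cells, had only 38, 4 and 47 counts, with ratios of -3.43 (interval -5.38 to -1.96) and 3.70 (2.24 to 5.63).

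**Figure D3:**
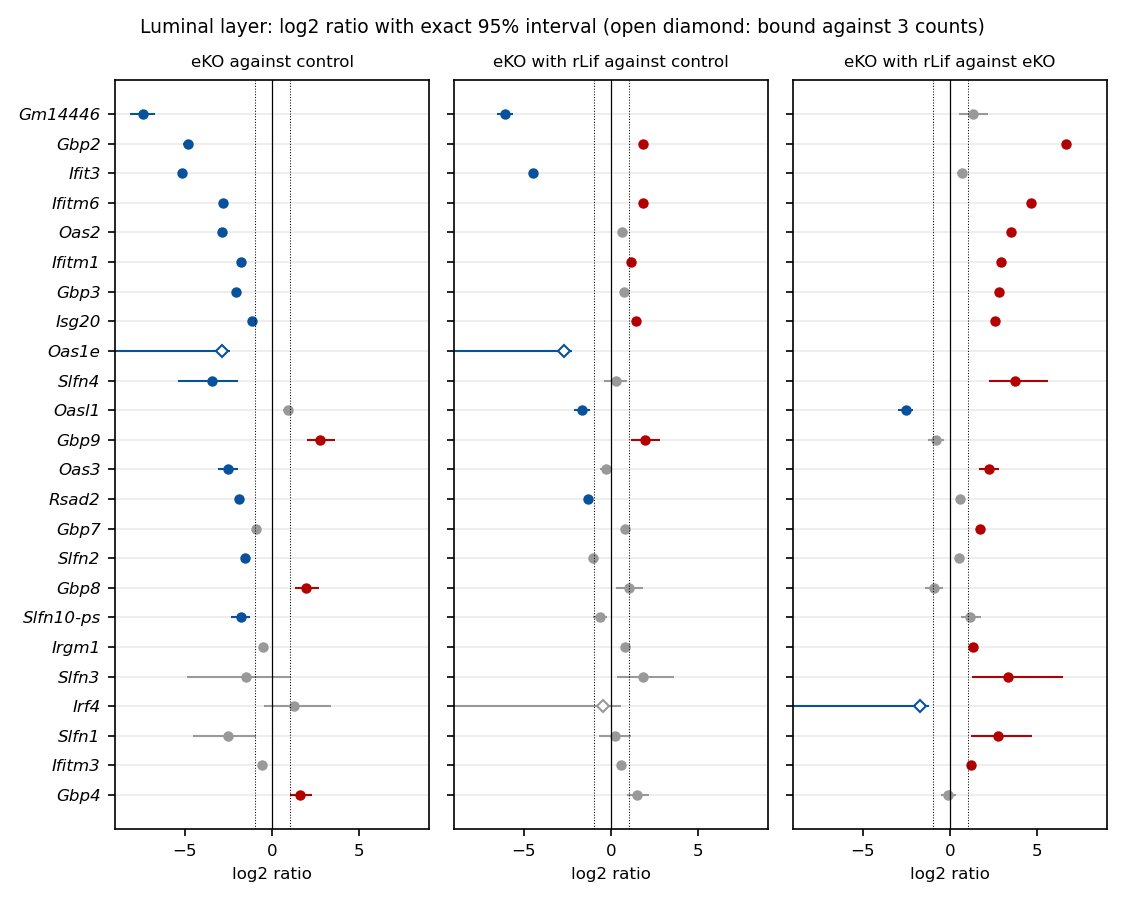
Log2 ratios (x axes) of the same 24 genes in the 3 luminal comparisons, with exact 95% intervals as lines, dotted lines at a log2 ratio of 1 in each direction, red for called higher, blue for called lower, grey for not called, and open diamonds for bounds against a floor of 3 counts. *Gbp2* moves from -4.82 on the left to 6.65 on the right, whereas *Gm14446* and *Ifit3* stay far left in both comparisons with control.

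Other genes were far below control in both *Ltf*-Cre libraries. *Gm14446* (chr19:34592888-34601968, minus strand), of the Ifit family whose proteins bind foreign RNA, was at 2810 counts in control but at 19 in eKO and 43 with rLif. The log2 ratio to control was -7.39 for eKO (interval -8.13 to -6.75) and -6.07 for rLif (-6.54 to -5.64), or 168.2-fold and 67.4-fold lower. *Ifit3* (chr19:34583529-34588982, plus strand) had 6360, 199 and 288 counts, with ratios to control of -5.18 (interval -5.39 to -4.98) and -4.51 (-4.68 to -4.34). For both genes the rLif library was not called against eKO (1.32 with an interval of 0.51 to 2.18, and 0.67). *Rsad2* (viperin, an antiviral enzyme that makes a chain-ending nucleotide) had 761, 236 and 315 counts, with ratios to control of -1.87 and -1.32. *Oas1e* had 19, 0 and 0 counts, which puts it at least 7.20-fold lower in eKO and at least 6.53-fold lower with rLif, against a floor of 3 counts in each library at 0.

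The low Ifit genes were next to members of the same family that were not called. In order along chromosome 19 the cluster holds *Ifit2*, *Ifit3*, *Gm14446*, *I830012O16Rik* (*Ifit3b* in RefSeq), *2010002M12Rik* (*Ifit1bl2*) and *Ifit1*. *I830012O16Rik*, not among the 70 and chosen after its values were seen, had 2938, 51 and 89 counts, with ratios to control of -6.03 and -5.09. *2010002M12Rik*, also outside the 70, was scarce at 20, 21 and 12 counts and was not called (-0.12 and -0.78). At the ends of the cluster, *Ifit1* had 4560, 2840 and 2589 counts (ratios to control of -0.87 and -0.86) and *Ifit2* had 191, 123 and 150 (-0.82 and -0.39). Both were below control in both libraries by less than the limit with TMM scaling. TPM scaling, which shifted every log2 ratio of rLif to control by -0.29, put *Ifit1* past the limit for rLif. *Ifit1*, *Ifit3*, *I830012O16Rik* and *2010002M12Rik* held 2 copies of the ISRE core in a window. The copies of *2010002M12Rik* are the same bases as those of *Ifit1*, since their windows overlap on opposite strands. *Gm14446* held 1 copy in each of 2 windows, and *Ifit2* held none. *Ifit3* shares 31.7% of its 100-base stretches with *Ifit3b*, so reads could have been moved between these 2 rows or dropped, whereas *Gm14446* shares 0.51% with any gene.

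The Gbp genes form clusters on chromosomes 3 and 5. In the library labelled eKO, those called against control were lower on chromosome 3 and higher on chromosome 5. On chromosome 3 (142496934 to 142638008, 5 genes, 4 analysed) all 4 ratios of eKO to control were below 0, but the interval of *Gbp5* (-1.39 to 0.26) crossed 0. Of these 2 were called lower, *Gbp2* and *Gbp3*, beside 9.15% of all genes. All 4 were above 0 for rLif against eKO, with 3 called higher (beside 7.88% of all genes), since *Gbp7* at 1424, 863 and 2571 counts joined them (1.72). On chromosome 5 (105014153 to 105346472, 6 genes, 4 analysed) all 4 ratios of eKO to control were above 0. Of these 3 were called higher, beside 8.08% of all genes. *Gbp9* had 16, 123 and 63 counts (2.76 for eKO and 1.93 for rLif against control), *Gbp8* 23, 101 and 49 (1.95 for eKO) and *Gbp4* 29, 101 and 85 (1.61 for eKO, with a lower bound of 1.01). No chromosome 5 gene was called for rLif against eKO, and all 4 ratios were below 0, with the intervals of *Gbp4* and *Gbp6* crossing 0. The chromosome 5 genes were scarce, at most 123 counts, while *Gbp2* reached 11675. The call of *Gbp4* and that of *Gbp9* for rLif against control were lost with total counts and with TPM scaling.

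**Figure D4:**
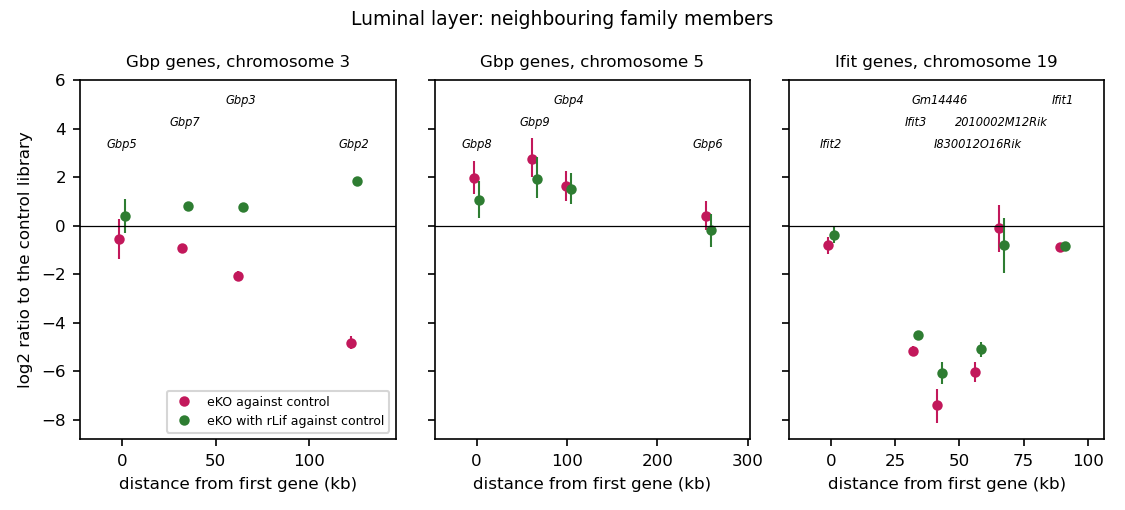
Log2 ratio to the control luminal library (y axis) of neighbouring family members against distance from the first gene of each cluster in kilobases (x axes), for the libraries labelled eKO and eKO with rLif, with exact 95% intervals. The points of the chromosome 3 Gbp genes lie under 0 for eKO and above 0 for rLif. Those of the chromosome 5 Gbp genes lie above 0 for eKO. The eKO intervals of *Gbp5* and *Gbp6* cross 0. In the Ifit cluster, 3 central genes lie under -4 for both while the cluster ends and the scarce *2010002M12Rik* stay above -1.

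Some genes were highest in the library labelled eKO. *Oasl1*, a synthetase-like gene that limits *Irf7* translation, had 177, 375 and 58 counts and was called lower with rLif, at -1.65 against control and -2.55 against eKO. *Irf4*, a lymphoid factor, had 4, 11 and 0 counts and was at least 3.32-fold lower with rLif than in eKO.

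The remaining calls were single ones. *Slfn2* had 3056, 1197 and 1559 counts and *Slfn10-ps* 122, 40 and 81, both called lower in eKO (-1.54 and -1.79). *Slfn2* was -1.02 for rLif against control, which was called lower with total counts (-1.19) or TPM scaling (-1.30) only. *Irgm1*, an immunity-related GTPase, had 4740, 3786 and 8554 counts and was called higher with rLif than in eKO (1.32). *Slfn1* at 20, 4 and 24 counts and *Slfn3* at 5, 2 and 18 were called higher there too, with wide intervals (1.19 to 4.71 and 1.25 to 6.46). Of the 8 Schlafen genes analysed, 7 had ratios of eKO to control below 0 and 3 were called lower, beside 9.15% of all genes called lower and 50.3% of all ratios above 0.

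Several well-known markers of an interferon response were not called in any luminal comparison. *Isg15*, a ubiquitin-like protein, had 1134, 2140 and 1285 counts (log2 ratio 0.73 for eKO against control). *Usp18*, the protease that removes it, had 930, 1411 and 1739. *Irf7*, the factor that amplifies type I interferon, had 2141, 3596 and 2222 counts, and *Irf9* had 2112, 3430 and 2154, each about 0.5 above control in eKO on the log2 scale (0.56 and 0.51). *Irf1* had 1686, 1083 and 1288 counts (-0.82) and *Irf3* 1733, 2103 and 2224 (0.09). Among these regulators *Irf7* and *Irf9* were thus highest in eKO and *Irf1* lowest there. *Mx1* was scarce at 46, 58 and 54 counts. The RNA sensors *Ddx58* (RIG-I) at 1927, 3328 and 2481 and *Ifih1* (MDA5) at 333, 448 and 374 were not called either, nor were *Bst2* (3753, 4749 and 4921) and *Ifitm2* (28602, 35642 and 51499). In all, 37 of the 62 luminal genes were called in no comparison. The ISRE core was found in 15 of 31 such genes with a promoter entry, in 6 of 11 called lower in eKO and in 6 of 12 called higher with rLif against eKO.

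Other genes of the pathway were taken from lists of ligands, receptors, kinases, regulators and sensors, and from a list of further interferon-induced genes. That last list holds targets and gave 26 of the luminal genes analysed, with 2 called higher and 2 lower in eKO against control. Of 58 such genes analysed in the luminal layer, 4 were called higher and 4 lower in eKO against control (6.9% each, beside 8.08% and 9.15% of all genes). For rLif against control 3 and 2 were called (5.17% and 3.45%, beside 4.12% and 5.04%), and for rLif against eKO 4 and 4 (6.9% each, beside 7.88% and 7.77%). These shares were near those of all genes. *Ifne*, the interferon epsilon made constitutively by female reproductive epithelium, had 466, 1493 and 725 counts and was called higher in eKO (1.49, interval 1.34 to 1.65). Most receptor genes were near level and none was called in eKO: *Ifnar1* had 1489, 1432 and 1305 counts, *Ifnar2* 1448, 1278 and 1655, and *Ifngr1* 2034, 1703 and 1676. *Ifngr2* had 3847, 8378 and 2251 counts and was called lower with rLif than in eKO (-1.75). *Jak1* (5725, 4809 and 8746), *Tyk2* (465, 418 and 430) and *Stat2* (595, 663 and 460) were not called, whereas *Jak2* at 1960, 7134 and 1874 was higher in eKO (1.68) and lower with rLif than in eKO (-1.79).

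Among the sensors, *Tmem173* (STING, which relays signals from cytosolic DNA) had 4887, 962 and 10952 counts. It was called lower in eKO (-2.53), higher with rLif against control (1.12) and higher with rLif against eKO (3.65). *Zbp1*, a sensor of Z-form nucleic acids, had 1029, 380 and 2539 counts, with ratios of -1.62, 1.26 and 2.88. Both thus followed the order seen for *Gbp2* and *Ifitm6*. The chemokine gene *Cxcl10* had 167, 56 and 17 counts, with ratios to control of -1.76 for eKO and -3.34 for rLif. *Ifi27l2a*, at 226, 662 and 723, was above control in both (1.36 and 1.63).

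Markers of other cells in the luminal libraries did not all stay level. The 6 stroma markers summed to 574, 908.5 and 621.3 CPM with *Col3a1* called higher in eKO, and the 4 smooth muscle markers to 51.1, 40.08 and 26.16. Among the latter *Cnn1* (124, 29 and 11 counts) was called lower in eKO (-2.28) and with rLif against control (-3.54), *Acta2* (470, 309 and 134) lower with rLif against control, and *Myh11* (62, 71 and 19) lower with rLif against eKO. The 2 glandular markers in the table were highest with rLif, as were *Gbp2* and *Ifitm6*: *Prss29* had 123, 111 and 315 counts, called higher against both other libraries, and *Foxa2* 3, 0 and 10, called higher against eKO. The 4 endothelium markers summed to 33.4, 46.7 and 75.8 CPM, with 1 called higher in eKO and 2 with rLif against control. Of 8 immune cell markers 7 were in the table, summing to 71.7, 73.2 and 102.7 CPM, and *Itgam* alone was called (32, 122 and 61 counts, higher in eKO). No marker of these lists was at 0 in all 3 libraries. Within the epithelium list, *Epcam* (25283, 16397 and 35284) was lowest in eKO and *Krt8* (21158, 49601 and 15790) highest, while *Cdh1* was level at 5859, 6638 and 6224. The part of these cells in the differences above was not tested.

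In blastocysts, the interferon-stimulated genes called for eKO against control were all higher in embryos from eKO mothers, at low counts. Those called for rLif against eKO were all lower with rLif. *Rsad2* was level between control and eKO, while *Oas2* and *Irf2* were highest in control and *Irgm2* with rLif. Of the 58 genes analysed, 8 were called higher and 0 lower in eKO against control (13.8%), beside 1.29% higher and 1.86% lower of all 14873 genes (3.15% in either direction). Against the eKO library, the rLif library had 0 called higher and 12 lower (20.7%), beside 0.914% and 2.83% (3.75% in either direction). Against control it had 1 called higher and 3 lower (6.9%), beside 0.948% and 3.99% (4.94% in either direction). The median log2 ratios were 0.44, -0.64 and -0.07, beside -0.003, -0.01 and -0.01 for all genes. Scarce genes are called more often, and 41 of the 58 lie in the rarest of 3 equal classes of genes, with at most 263 counts summed. In that class 7 of the 41 were called for eKO against control beside 8.22% of all genes in it, and 10 of 41 for rLif against eKO beside 8.79%. *Slfn5*, *Ifit2*, *Oasl1* and *Gbp2* reached the required sum of 10 counts only through the eKO library. The direction of their calls was thus in part set by that filter.

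*Slfn4* stood farthest out. It had 7 counts in control blastocysts, 379 in those from eKO mothers and 17 in those from eKO mothers given rLif. That is a log2 ratio of 5.72 for eKO to control (interval 4.67 to 7.05), or 52.8-fold, and of -4.47 for rLif to eKO (-5.27 to -3.77). For rLif against control it was 1.25 with an interval of -0.09 to 2.76, so those 2 libraries could not be told apart at this depth.

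Of the 8 Gbp genes analysed 2, and of the 3 Ifit genes 2, were called higher in eKO than in control and lower with rLif than in eKO, beside 1.29% and 2.83% of all genes. In the rarest class of genes, where these called genes lie, the shares were 3.61% and 6.55%. *Gbp2* and *Ifit2* reached the required sum only through the eKO library, which in part set the direction of their calls. *Gbp2* had 7, 58 and 2 counts, with ratios of 3.01 for eKO to control (1.88 to 4.39) and -4.85 for rLif to eKO (-7.93 to -2.93). *Gbp5* (chr3:142496934-142522344, plus strand) had 7, 53 and 5 counts, with ratios of 2.88 and -3.40. *Ifit1* (chr19:34640889-34650009, plus strand) had 15, 91 and 10 counts, with ratios of 2.56 (1.77 to 3.46) and -3.18 (-4.29 to -2.23). In each of these genes the eKO library was the high one and the others overlapped in their counting intervals. *Ifit2* (chr19:34550694-34576534, plus strand) had 0, 22 and 0 counts, so that eKO exceeded control by at least 7.15-fold and the rLif library was at least 7.29-fold lower than eKO. The other 6 Gbp genes were not called and had no common order, as *Gbp7* had 24, 16 and 8 counts, *Gbp3* 10, 4 and 4, and *Gbp9* 11, 21 and 32. *Ifit3* at 6, 22 and 4 counts was not called (1.84, interval 0.49 to 3.43), and *Gm14446*, so different between the luminal libraries, was at 0 in all 3.

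**Figure D5:**
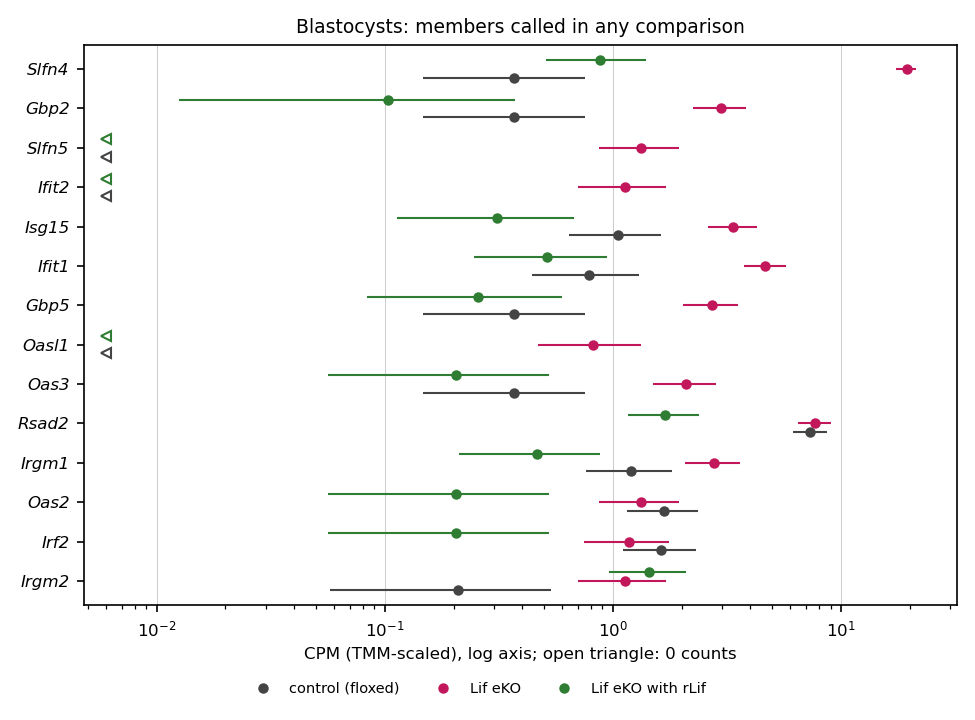
CPM (TMM-scaled, log axis) of the 14 genes called in any blastocyst comparison, 1 row per gene and 1 point per library, with exact Poisson 95% intervals as lines and open triangles for 0 counts. *Slfn4* in embryos from eKO mothers (19.4 CPM) is the highest point, and for most rows the eKO point lies to the right of the other two.

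Of the 10 synthetase genes analysed 2 were called higher in eKO than in control, and these were called lower with rLif than in eKO too. Over all genes 1.29% were called higher in eKO and 2.83% lower with rLif than in eKO. In the rarest class, where both called genes lie, the shares were 3.61% and 6.55%. *Oas3* had 7, 41 and 4 counts, with ratios of 2.51 for eKO against control and -3.35 for rLif against eKO. *Oasl1* had 0, 16 and 0 counts, so the eKO level was at least 5.20-fold higher than control. It reached the required sum only through the eKO library. Others did not have this order, such as *Oasl2* at 84, 62 and 122 counts and *Oas1e* at 24, 24 and 48. *Isg15* (chr4:156199424-156200818, minus strand) had 20, 66 and 6 counts and was called for rLif against eKO (-3.45), whereas its interval for eKO against control, 0.95 to 2.49 around 1.69, reached just inside the limit. *Slfn5*, which also reached the sum only through the eKO library, had 0, 26 and 0 counts and was at least 8.45-fold higher in eKO. Its exons overlap those of *1700003F17Rik* on the other strand, a row at 0 throughout, so its counts are uncertain where the strand setting is not stated.

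In other genes the rLif library was the low one. *Rsad2* (chr12:26442743-26456452, minus strand) had 140, 150 and 33 counts, level between control and eKO (0.06) and lower with rLif, at -2.11 against control and -2.18 against eKO. *Oas2* had 32, 26 and 4 counts, with ratios of -3.03 and -2.69. *Irf2*, a factor that competes with Irf1 for the same sites, had 31, 23 and 4 counts and was called against control alone (-2.98). *Irgm1* had 23, 54 and 9 counts and was called for rLif against eKO (-2.58). *Irgm2* went the other way, with 4, 22 and 28 counts and a ratio of 2.78 for rLif against control.

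Most of the more abundant genes were level among the blastocyst libraries. *Ifitm2* had 847, 993 and 850 counts, *Irf3* 773, 800 and 905, and *Irf9* 241, 321 and 305. *Irf1* had 94, 101 and 64 counts. *Irf7* had 33, 71 and 25 counts (1.07 for eKO against control, interval 0.45 to 1.71), the order of the called genes without reaching the limit. *Usp18* had 1, 13 and 2 counts, with a ratio of 3.66 and an interval of 0.93 to 9.07. In all, 44 of the 58 genes were called in no blastocyst comparison.

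Of 51 other genes of the pathway analysed in blastocysts, 5 were called higher and 1 lower in eKO against control (9.8% and 1.96%, beside 1.29% and 1.86% of all genes). For rLif against control 0 and 3 were called (5.88% lower, beside 3.99%), and for rLif against eKO 0 and 6 (11.8% lower, beside 2.83%). The called genes all lie in the rarest class, with at most 263 counts summed. In that class 3.61% of genes were called higher and 4.62% lower in eKO, and 6.55% lower with rLif against eKO. How many of the 51 lie in that class was not counted. *Cxcl10* had 2, 66 and 2 counts, with ratios of 5.01 (interval 3.10 to 8.08) and -5.04 for rLif against eKO (-8.11 to -3.13). *Ifi204*, a DNA-sensing family member, had 3, 38 and 8 counts (3.63, interval 1.97 to 5.97, and -2.24), *Igtp*, a GTPase of the Irgm family, 4, 32 and 13 (2.96), and *Psmb8*, an immunoproteasome subunit, 5, 30 and 5 (2.55 and -2.58). *Zbp1* had 4, 24 and 15 counts (2.55). The gene called lower was *Tlr7*, a receptor for single-stranded RNA, at 12, 0 and 0 counts, at least 4.10-fold lower in eKO and at least 4.08-fold lower with rLif than in control. *Herc6*, a ligase gene of the Isg15 pathway, had 6, 16 and 0 counts and was at least 5.30-fold lower with rLif than in eKO. *Cxcl10* and *Herc6* reached the required sum of 10 counts only through the eKO library, and *Tlr7* only through control. The ligand genes *Ifnb1*, *Ifne*, *Ifng*, *Ifnl2* and *Ifnl3* were at 0 counts in every blastocyst library. The receptor gene *Ifnar2* had 96, 107 and 24 counts and was called lower with rLif (-2.03 against control and -2.15 against eKO), while *Ifnar1* (661, 942 and 654), *Ifngr1* (197, 192 and 146), *Ifngr2* (332, 483 and 264), *Jak1* (3037, 3500 and 2895), *Tyk2* (694, 929 and 728) and *Stat2* (327, 251 and 215) were not called.

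Markers of immune cells moved with the eKO embryo library in part. Of 8 such markers 7 were in the table, summing to 10.8, 16.6 and 7.36 CPM. *Csf1r* had 31, 68 and 10 counts and *Itgam* 48, 101 and 33, both called lower with rLif than in eKO. *Ptprc* had 26, 41 and 19 counts, *Cd68* 41, 66 and 56, and *Cd3e*, called lower in eKO, 26, 4 and 14. Of 11 further myeloid genes, chosen after their values were seen, 2 were called higher in eKO (*Cd14* and *S100a8*) and 3 lower with rLif against eKO (*Lyz2*, *Fcgr3* and *S100a8*). *Lyz2* had 976, 2128 and 289 counts, *Fcgr3* 511, 824 and 256, and *S100a8* 6, 33 and 7, whereas *Cd14*, at 30, 196 and 111, was called higher with rLif than in control. Others of the 11 were not highest in eKO: *Cxcr2* had 236, 122 and 69 counts, *Laptm5* 200, 193 and 124, and *Csf3r* 3357, 4234 and 5162. No marker of either list was at 0 in all 3 libraries. Trophectoderm markers summed to 2746, 2985 and 3037 CPM and inner cell mass markers to 486.6, 489.7 and 667.7. Some genes of the lists made for uterine cells were highest in control and lowest with rLif. *Col3a1* (122, 60 and 28 counts), *Dcn* (164, 84 and 51) and *Hoxa11* (24, 10 and 1) of the stroma list, the glandular *Foxa2* (103, 61 and 26) and the endothelial *Kdr* (27, 0 and 0) were called lower with rLif against control, as *Rsad2*, *Oas2* and *Irf2* were. Other markers did not share this order. In the endothelium list *Cdh5* (72, 47 and 24) did, but *Pecam1* (1222, 1306 and 1807) and the summed CPM (69.3, 69.7 and 94.6) were highest with rLif, and *Tek* had 0, 9 and 7 counts. Of the smooth muscle list, *Des* had 36, 19 and 27 counts and *Cnn1* 7, 0 and 6. The stroma list summed to 142.1, 154.8 and 144.9 CPM, most of it *Pdgfra* at 2354, 2845 and 2718 counts, so this sum does not measure stroma here. Which reads of these genes, *Pdgfra* and *Foxa2* among them, came from the embryos themselves was not tested. The part of immune or uterine cells flushed with the embryos in these differences was not tested.

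*Gbp2*, *Slfn4* and *Oas3* were called lower in the luminal library labelled eKO and higher in the embryos from eKO mothers. *Gbp2* had 3179 and 128 counts in the control and eKO luminal libraries and 7 and 58 in the blastocyst ones. *Slfn4* had 38 and 4 counts in the luminal libraries and 7 and 379 in the blastocyst ones, and *Oas3* 166 and 33 against 7 and 41. For rLif against eKO, *Gbp2*, *Slfn4*, *Oas2*, *Oas3* and *Irgm1* were called higher in the luminal layer and lower in blastocysts. The difference between tissues was not tested, as each ratio rests on single libraries.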

How the data were processed

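RNA-seq libraries (SMART-seq v4) from 3 luminal and 3 blastocyst pools were analysed, 1 per group as the labels give them. The authors aligned reads to GRCm38/mm10 with HISAT2 and counted them per gene with featureCounts (Subread 2.0.0). The deposited values were whole-number counts per gene, not normalized, although the study's methods call them RPKM. The deposited exon length per gene, in bases, was used for TPM. The annotation release, strand setting and treatment of multi-mapped reads were not given in the sources used here. Of the 23420 genes, 2814 have exons overlapping another gene.

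Total counts were 23850565, 28460465 and 27809527 (luminal control, eKO, eKO with rLif) and 18996158, 19638852 and 19417359 (blastocysts). Scaling was by TMM in edgeR 4.0.16 under R 4.3.3. Intervals at 95% were exact (SciPy 1.17.1), of Clopper-Pearson type for ratios and Poisson type for counts. With 0 counts in a library, the fold is a bound against 3 counts in it. A gene needed 10 counts or more per tissue. The call rule was tested on simulated data. Alternatives were other scalings (total counts, DESeq2 1.42.0 size factors, TPM), filters, limits, leaving out overlapping genes, and edgeR's exact test with an assumed dispersion of 0.1. A pair of alternatives was added after seeing the data: leaving out genes matching by name only, and genes sharing 20% or more of their 100-base stretches with another gene. These stretches were counted in GENCODE M21 transcripts, in place of a planned comparison of protein sequences, which was not made. Promoter matches used RefSeq windows of 300 bases, and 16 genes had no entry.

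The genes, the lists of pathway and marker genes and the rules were chosen with earlier results of these data known. Named in each tissue were all called genes (the 12 farthest from the limit in full), the 5 highest TPM values in control, *Irf1*, *Irf3*, *Irf7* and *Irf9*, set receptors and kinases, and the 5 called pathway genes farthest from the limit. Other genes were named after their values were seen. Some results that this rule covers are not reported here.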

Additional observations from a re-analysis of the deposited data

Results flagged for a closer look

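Of the genes described, 5 were called in opposite directions in the luminal layer and in blastocysts under the same contrast, which gave 8 pairs of ratios. The difference between the tissues was not tested, since each ratio compares 2 single libraries. For eKO against control the luminal and blastocyst log2 ratios were -3.43 and 5.72 for *Slfn4*, -4.82 and 3.01 for *Gbp2*, and -2.52 and 2.51 for *Oas3*. For rLif against eKO they were 1.32 and -2.58 for *Irgm1*, 3.70 and -4.47 for *Slfn4*, and 6.65 and -4.85 for *Gbp2*. They were 3.50 and -2.69 for *Oas2*, and 2.21 and -3.35 for *Oas3*. The blastocyst ratios rest on at most 58 counts per library, except those of *Slfn4*, and the luminal *Slfn4* ratios on at most 47.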

How the results depend on the processing

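The numbers of genes called for eKO against control, rLif against control and rLif against eKO were 18, 10 and 16 in the luminal layer and 8, 4 and 12 in blastocysts. With a log2 limit of 0 they were 49, 42 and 49, and 26, 26 and 35. With a limit of 2 they were 6, 3 and 8, and 3, 0 and 7. With edgeR's exact test at an assumed dispersion of 0.1 they were 10, 3 and 9, and 3, 0 and 6. In the luminal layer that test did not call *Gbp2*, *Ifitm6*, *Ifitm1* or *Isg20* for rLif against control. It did not call *Ifitm1* or *Isg20* for eKO against control either. In blastocysts it called only *Slfn4*, *Slfn5* and *Ifit2* for eKO against control. The shares of all genes under these limits and this test are not given here, so these counts are not a result about these genes. A minimum of 50 counts left 5 for blastocysts, eKO against control. Under the other scalings, filters and exclusions all counts stayed within 1.5 times the value given. DESeq2 size factors moved no named ratio across the limit. Total counts shifted the luminal median of all genes by -0.18 for rLif against control and -0.11 for rLif against eKO, and TPM scaling shifted it by -0.17, -0.29 and -0.11. The luminal median of the 62 genes for rLif against control, 0.13, then became -0.05 and -0.16. No paired analysis was possible because each group was 1 library and the labels give no replicate numbers. Depth limits blastocysts most, where the median of the 70 genes was 13, 22.5 and 9 counts. The dispersion between animals is unknown, and how many calls it would leave was not tested.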
